A study of Homo sapiens with 3 samples.

Results

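The genes described here are the protein-coding genes of the *HOXA* cluster on chromosome 7, measured in HCT116 cells, an established human colon cancer cell line, after silencing of *HOXA5* short RNA, a non-coding transcript of that cluster. They were taken as *HOXA2*, *HOXA3*, *HOXA4*, *HOXA5*, *HOXA6*, *HOXA7*, *HOXA9*, *HOXA10*, *HOXA11* and *HOXA13*, through every gene probe whose transcript accession belongs to 1 of these 10 genes in the RefSeq table. They had 12 probes of the 50599 gene probes on the array, and 10 of these 12 probes, from 8 of the 10 genes, were well above background on all 3 arrays, as were 18121 probes in all. Those 18121 passing probes, which were also at or above the 20th percentile on at least 2 arrays, are the set to which the members are compared. Treatment lasted 48 h at 10 nM, with either control siRNA or 1 of the siRNAs against this RNA, #7 and #8. All groups were the same cell line with no other change named in the labels, and both siRNA groups carried the same genotype, silencing of *HOXA5* short RNA, against the genotype control. From each group 400 ng of RNA was labeled with Cy3 and hybridized to 1 array, so that no difference between 2 conditions has a replicate check.

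HOX genes encode homeodomain transcription factors that give cells their position along the body axis, and they lie in clusters in the order in which they are used from head to tail. In the adult intestine and in colon cancer cells some of them remain expressed, and neighbouring genes of a cluster are often controlled together through shared chromatin domains. Non-coding RNAs are transcribed between and across the coding genes, and in the *HOXA* cluster these include *HOTAIRM1*, *HOXA11-AS* and *HOTTIP*. By the study's mapping, *HOXA5* short RNA starts upstream of *HOXA6*, between that gene and *HOXA7*, leaves out the first exon of *HOXA5* and ends where the *HOXA5* mRNA does, so that *HOXA6* lies within its span.

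The 2 siRNAs are shown here because they read nearly the same site. They are given 5′ to 3′ as the study lists them, with the 17 bases that they share in capitals.
siRNA #7: gagaAACUGAAAGACAACAUA
siRNA #8: AACUGAAAGACAACAUAggcg
Each has 21 bases, and siRNA #8 starts 4 bases further along than siRNA #7. They share their target and most of their sequence, and both were set against the same control array, so they are not independent replicates of silencing.

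Promoter windows are shown for the members whose values differed most from control siRNA in either direction, from 250 bases before to 50 bases after an annotated start (RefSeq, GRCh38.p14). Capitals mark the first transcribed base, and in *HOXA3* also a TATAAA match, which lies on the opposite strand and so reads TTTATA here, 29 bases before the start. In *HOXA11* the other capital is the base at which the antisense RNA *HOXA11-AS* starts on the plus strand.
HOXA3, chr7:27152534-27152833, minus strand: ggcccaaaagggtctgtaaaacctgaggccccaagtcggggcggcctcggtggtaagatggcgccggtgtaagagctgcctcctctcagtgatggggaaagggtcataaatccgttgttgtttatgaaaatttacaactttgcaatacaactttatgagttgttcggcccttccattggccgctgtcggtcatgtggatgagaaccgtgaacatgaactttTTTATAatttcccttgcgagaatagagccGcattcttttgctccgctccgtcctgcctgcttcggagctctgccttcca
HOXA6, chr7:27147725-27148024, minus strand: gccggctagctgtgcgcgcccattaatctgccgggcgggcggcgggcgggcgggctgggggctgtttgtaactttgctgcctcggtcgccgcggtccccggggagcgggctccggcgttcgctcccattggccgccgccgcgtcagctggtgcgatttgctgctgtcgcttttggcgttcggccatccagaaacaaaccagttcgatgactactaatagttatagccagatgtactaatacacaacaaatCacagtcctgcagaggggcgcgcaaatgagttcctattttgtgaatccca
HOXA11, chr7:27185183-27185482, minus strand: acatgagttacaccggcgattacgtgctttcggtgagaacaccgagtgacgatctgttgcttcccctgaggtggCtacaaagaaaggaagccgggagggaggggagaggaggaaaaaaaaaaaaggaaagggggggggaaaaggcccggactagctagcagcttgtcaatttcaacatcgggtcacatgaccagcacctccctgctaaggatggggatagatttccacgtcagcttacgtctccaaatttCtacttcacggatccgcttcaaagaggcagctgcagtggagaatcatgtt
The starts of *HOXA11* and *HOXA11-AS* are 176 bases apart, and those of *HOXA13* and *HOTTIP* 330 bases apart. *HOXA3* has 7 windows in the RefSeq table, and 2 of its annotated starts, 3176 and 4809 bases upstream of the *HOXA6* start, lie between *HOXA6* and *HOXA7*, so that some *HOXA3* transcripts run across *HOXA6* and *HOXA5*, as *HOXA5* short RNA does. The *HOXA3* window above is one of these, chosen because it holds a TATAAA match, which no other *HOXA3* window does. Whether the *HOXA3* probe reads transcripts from this start was not tested. The TATAAA motif, searched on both strands, was in 4 of 16 member windows (25%), and in 11.53% of all 35116 windows of this length. The CCAAT motif, searched in the same way, was in 9 of 16 member windows against 34.6% of all windows. The median GC content of the member windows was 55.8%, against 58.7% over all windows. Windows were found for 9 of the 10 members, and *HOXA5* has none in the table.

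The 3 arrays shared 1 slide and 1 scan, so neither separates the conditions. With 1 array per condition, any batch of culture, transfection or labeling could not be told apart from the siRNA. Between 19069 and 20473 probes were well above background on an array, and 0 spots were saturated. The intensity of a spot is the signal the scanner software gave after it subtracted the background. It was divided by the 75th percentile of the array (52.8 for control siRNA, 42.1 for siRNA #7, 42.8 for siRNA #8) before arrays were compared, and ratios are given on the log2 scale. The error given with a ratio is a spot-to-spot SD from probes printed 10 times on each array, taken at the signal of the probe and combined over both arrays. It covers spotting and scanning and not the spread between cultures, and the number of arrays limits the precision. Of 9 colon epithelial markers, 7 were well above background on all arrays, and *VIL1* and *LGALS4*, which mark differentiated enterocytes, on none. Of the 5 fibroblast markers 1 was (*COL1A1*, intensities 48.1, 28.2 and 35.9), and of the 4 endothelial and 5 leukocyte markers 0 were. The part of other cell types in the results was not tested.

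*HOXA5*, which lies at the silenced locus and encodes a factor that patterns the lung and the cervical and thoracic skeleton, is given first. Its only probe, named for the coding transcript, gave intensities of 84.9, 52.6 and 58.5 on the arrays of control siRNA, siRNA #7 and siRNA #8, the order kept below. Relative to the 75th percentile of each array these are log2 levels of 0.68, 0.32 and 0.45. The log2 ratio to control siRNA was -0.36 ± 0.25 (SD) with siRNA #7 and -0.23 ± 0.26 with siRNA #8. The second of these differences was smaller than its own SD. With both siRNAs the probe was dimmer than with control siRNA, by 1.29-fold and 1.18-fold. Around the *HOXA5* spot, neighbouring spots had a median ratio of -0.15 with siRNA #8, and -0.08 was left for *HOXA5* after their deviation was removed. Whether this probe reads *HOXA5* short RNA, the coding mRNA or both was not tested, since the columns used do not give its position, so its values are no check of the silencing.

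**Figure D1:**
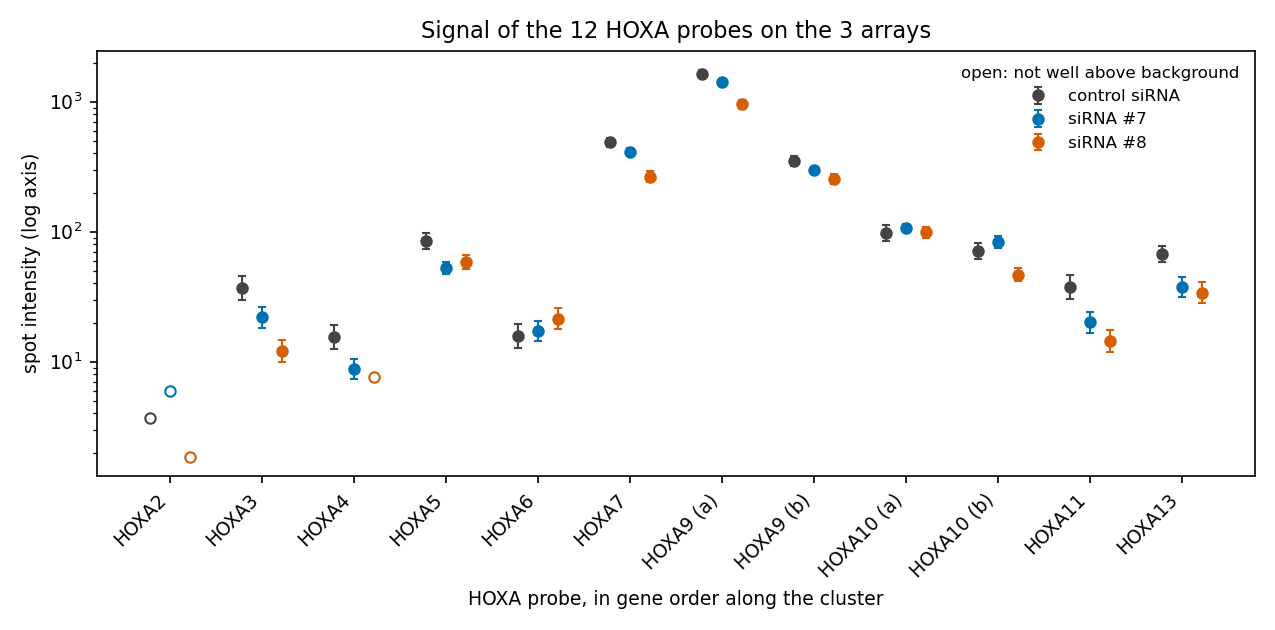
Spot intensity (log axis) of the 12 *HOXA* probes in gene order, with control siRNA (grey), siRNA #7 (blue) and siRNA #8 (orange), before scaling between arrays. Bars are the spot-to-spot SD of 1 array, open points are not well above background, (a) and (b) are the brighter and the dimmer probe of a gene, and heights of different probes are not to be compared. The *HOXA2* points are open on all 3 arrays, and the *HOXA4* point is open with siRNA #8.

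Of the genes at the head end of the cluster, only *HOXA3* was well above background on all arrays. *HOXA2*, which gives the second pharyngeal arch its identity, had intensities of 3.69, 5.98 and 1.86 and was well above background on none of the arrays, so no ratio is given. *HOXA3*, which is needed for the thymus and the parathyroid glands, had intensities of 36.8, 21.9 and 12.03. The log2 ratio was -0.42 ± 0.40 with siRNA #7 and -1.31 ± 0.41 with siRNA #8. *HOXA3* was lowest with siRNA #8, 2.48-fold below control siRNA and 3.17 times the SD of the ratio. With normexp background correction, which adds an offset of 50 to each spot and so draws dim spots together, the siRNA #8 ratio was -0.25. That offset exceeds the *HOXA3* intensities, so a smaller ratio was fixed in advance. It does not show how far the difference rests on the background. *HOXA4*, a gene of the anterior cluster, had intensities of 15.4, 8.81 and 7.63, the last not well above background. Its ratio with siRNA #7 was -0.48 ± 0.40. With siRNA #8 it was -0.71 ± 0.41, or 1.63-fold lower, but on a spot not well above background, so the fold is uncertain.

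*HOXA6* lies within the span of the silenced RNA and *HOXA7* upstream of its start. *HOXA6*, whose start is the next coding start beyond *HOXA5*, had intensities of 15.9, 17.3 and 21.5. Its ratio was 0.45 ± 0.40 with siRNA #7 and 0.74 ± 0.41 with siRNA #8. *HOXA6* was thus higher than control siRNA on both siRNA arrays, with the higher value on the siRNA #8 array. Its ratios were positive under each of the other scalings and corrections (0.17 to 0.45 and 0.26 to 0.79). The other filters and the mean of probes leave the ratio of a gene with 1 probe as it is. The 0.26 was with normexp, whose offset exceeds the *HOXA6* intensities and so shrinks its ratios. *HOXA7*, a gene known in leukemias with rearranged *KMT2A*, had intensities of 486, 412 and 266. Its ratio was 0.09 ± 0.15 with siRNA #7, which turned to -0.19 with spike-in scaling, and -0.57 ± 0.18 with siRNA #8. *HOXA7* was therefore near control siRNA on the siRNA #7 array and lower on the siRNA #8 array, but the 15 neighbouring spots had a median ratio of -0.35 there, and -0.22 was left after their removal.

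*HOXA9*, which sustains blood stem cells and drives several leukemias, had a pair of passing probes. Its brighter probe had intensities of 1630.4, 1406 and 955, and its other probe 349, 296 and 253. With siRNA #7 the ratios were 0.11 ± 0.14 and 0.09 ± 0.16, and both turned negative with spike-in scaling and with normexp. With siRNA #8 they were -0.47 ± 0.15 and -0.16 ± 0.18, and both were negative under each of the other scalings and corrections. The 2 probes thus lay on the same side of control siRNA on each array, and on the siRNA #8 array only the brighter probe differed by more than its SD.

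*HOXA10*, which prepares the endometrium for implantation and also acts in blood cells, gave unlike values on its 2 probes. The brighter had intensities of 97.2, 107 and 98.8, and the other 70.7, 83.0 and 46.7. With siRNA #7 the ratios were 0.47 ± 0.23 and 0.56 ± 0.25. With siRNA #8 they were 0.33 ± 0.24 and -0.30 ± 0.26, on opposite sides of control siRNA, and the mean of both probes was 0.02. After neighbouring spots were removed they were 0.39 and -0.10, the second of which was smaller than its SD. *HOXA10* was thus higher with siRNA #7 on both probes, whereas its sign with siRNA #8 depended on the probe. RefSeq lists a *HOXA10*-*HOXA9* readthrough transcript, and whether these probes read it was not resolved.

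The genes at the tail end, *HOXA11* and *HOXA13*, act in the limb and the urogenital tract, and *HOXA13* also in the hindgut. *HOXA11* had intensities of 37.6, 20.04 and 14.4. Its ratio was -0.58 ± 0.40 with siRNA #7 and -1.09 ± 0.41 with siRNA #8, or 2.12-fold lower. *HOXA11* was lower on both siRNA arrays under each of the other scalings and corrections. With normexp, whose offset exceeds its intensities and so shrinks its ratios, the siRNA #8 ratio was -0.25. *HOXA13* had intensities of 67.7, 37.3 and 34.0. Its ratios were -0.53 ± 0.33 and -0.69 ± 0.34, and were negative under each of the other scalings and corrections (-0.81 to -0.15 and -0.88 to -0.20). Of the genes from *HOXA6* to *HOXA13*, only these were lower than control siRNA on both siRNA arrays on every passing probe, joined by *HOXA7* and *HOXA9* with spike-in scaling and by *HOXA9* with normexp.

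**Figure D2:**
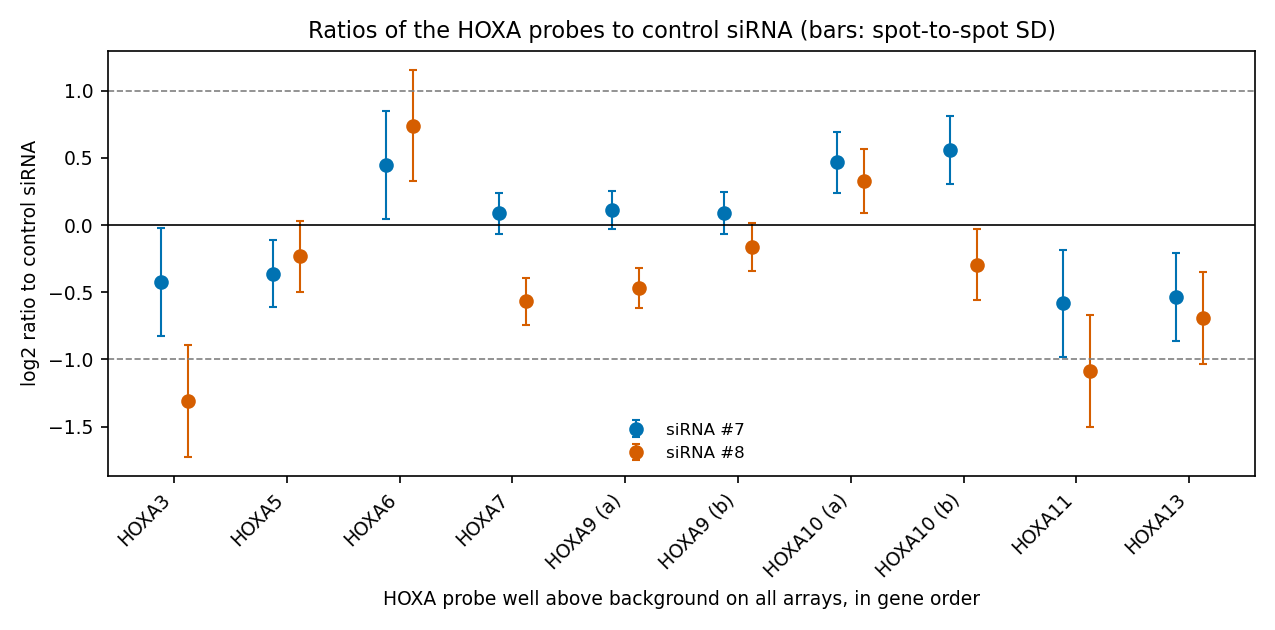
log2 ratio to control siRNA of the 10 *HOXA* probes well above background on all arrays, in gene order, for siRNA #7 (blue) and siRNA #8 (orange), with spot-to-spot SDs as bars and dashed lines at 2-fold. *HOXA3* and *HOXA11* pass the lower line with siRNA #8 (-1.31 and -1.09), and no probe passes a line with siRNA #7.

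Taking the brightest passing probe of each of the 8 genes, the median log2 ratio was -0.14 with siRNA #7 and -0.52 with siRNA #8, against 0.02 and 0.02 over all passing probes. These medians were -0.41 and -0.71 with spike-in scaling and -0.03 and -0.22 with normexp. Over the 10 member probes in place of the 8 genes, the median was 0.09 with siRNA #7 (6 higher, 4 lower) and -0.38 with siRNA #8. The sign of the siRNA #7 median thus depended on whether genes or probes were counted. With siRNA #7, 4 genes were higher and 4 lower, where 47.6% of all passing probes were lower, and 0 of 8 passed 2-fold, where 4.08% of all did. Spike-in scaling made this 6 lower and 2 higher, and normexp 5 lower and 3 higher. With siRNA #8, 6 of 8 genes were lower, where 48.3% of all passing probes were, and 2 were lower by at least 2-fold, where 2.85% were. The 6 lower genes were *HOXA3*, *HOXA5*, *HOXA7*, *HOXA9*, *HOXA11* and *HOXA13*, the 2 higher ones *HOXA6* and *HOXA10*. This split was the same under each of 10 alternatives, but the other filters leave these ratios as they are and could not change it. *HOXA10* was higher by more than the spot-to-spot SD on its brightest probe only (0.33 ± 0.24, and 0.13 with spike-in scaling). Its other probe was at -0.30 (-0.10 with neighbours removed), the mean of both was 0.02, and by probe 8 of 10 were lower. Spike-in scaling moved the median of all passing probes by -0.27 with siRNA #7 and by -0.19 with siRNA #8. Both comparisons share the control array, so a low or high control value moves both ratios of a gene the same way.

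Set among all passing probes, *HOXA3* lay furthest out of the members by share, with only 1.104% of probes at a lower siRNA #8 ratio. For *HOXA11* this share was 2.14% with siRNA #8 and 7.32% with siRNA #7. *HOXA6* lay on the other side, with 94.8% of probes below its siRNA #8 ratio. *HOXA5* was well inside the spread, with 16.1% of probes below it with siRNA #7 and 27.3% with siRNA #8. These shares take in bright and dim probes alike, and the place among probes of similar signal was not tested. Relative to the spot-to-spot SD *HOXA3* did not stand apart. Its siRNA #8 ratio was 3.17 times its SD, beside 3.22 for *HOXA7* and 3.14 for the brighter *HOXA9* probe, before neighbours were removed.

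**Figure D3:**
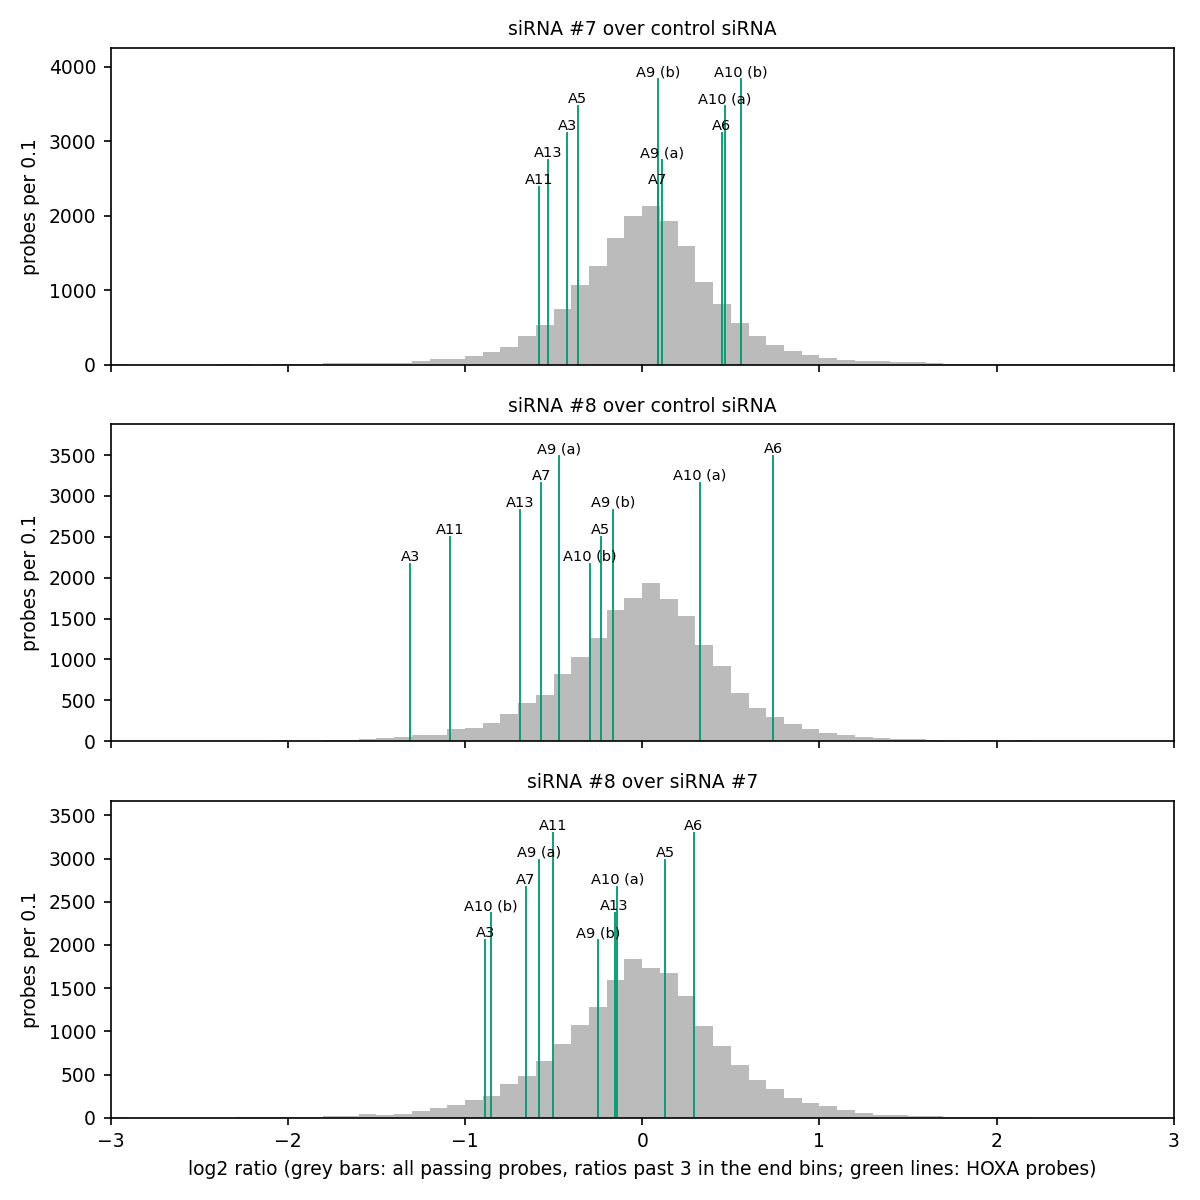
Number of passing probes per 0.1 of log2 ratio (grey bars) for siRNA #7 over control siRNA, siRNA #8 over control siRNA and siRNA #8 over siRNA #7, with the *HOXA* probes as green lines whose heights only separate the labels (A7 and A9 (b) coincide in the top panel). *HOXA3* and *HOXA11* lie in the lower tail of the middle panel, with 1.104% and 2.14% of probes below them.

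The siRNAs were also set against each other directly, at the same dose and time and without the control array. Of the 8 genes, 6 were lower with siRNA #8 than with siRNA #7, where 50.7% of all passing probes were, and the median ratio was -0.33 (-0.09 with normexp) against -0.01 over all. *HOXA7* had a ratio of siRNA #8 over siRNA #7 of -0.66 ± 0.16, of which -0.29 was left after neighbouring spots were removed. *HOXA9* had -0.58 ± 0.15 on the brighter probe and -0.25 ± 0.16 on the other. Each of these differences was larger than its spot-to-spot SD, both before and after the neighbours were removed (-0.64 and -0.23 for *HOXA9* after removal). *HOXA10* had -0.14 ± 0.17 and -0.85 ± 0.23 on its 2 probes, the second of which became -0.64 when neighbours were removed. *HOXA3* had -0.89 ± 0.38, *HOXA11* -0.50 ± 0.38 and *HOXA13* -0.16 ± 0.38, the last of which became 0.03 when neighbours were removed. Positive ratios were found for *HOXA6* (0.29 ± 0.38) and for *HOXA5* (0.13 ± 0.23, which became -0.01 with normexp). No member differed by 2-fold, where 5.58% of all passing probes did, and with 1 array each no test of these differences could be made.

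The only test joined both siRNA arrays as 1 silenced group against control siRNA, with 1 residual degree of freedom. The lone control array was assumed to vary like the siRNA pair. The residual is the difference between the siRNA arrays, which are not independent replicates, and not a spread between cultures. limma also drew the spread of each probe toward values estimated over all passing probes. The p-values and SEs of this fit therefore cannot decide whether a gene differed from control siRNA. Of the 18121 probes 5 passed an adjusted p of 0.05 in limma (0.0276%), and 0 of the 10 member probes did. At an unadjusted p of 0.05, 658 probes passed (3.63%), and again 0 member probes. *HOXA11* had a log2 difference of -0.83 ± 0.41 (SE). *HOXA3* had -0.87 ± 0.46, *HOXA13* -0.61 ± 0.38, *HOXA6* 0.59 ± 0.38 and *HOXA5* -0.30 ± 0.37. A p above the threshold with 3 arrays does not show that these genes were the same in both groups.

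**Figure D4:**
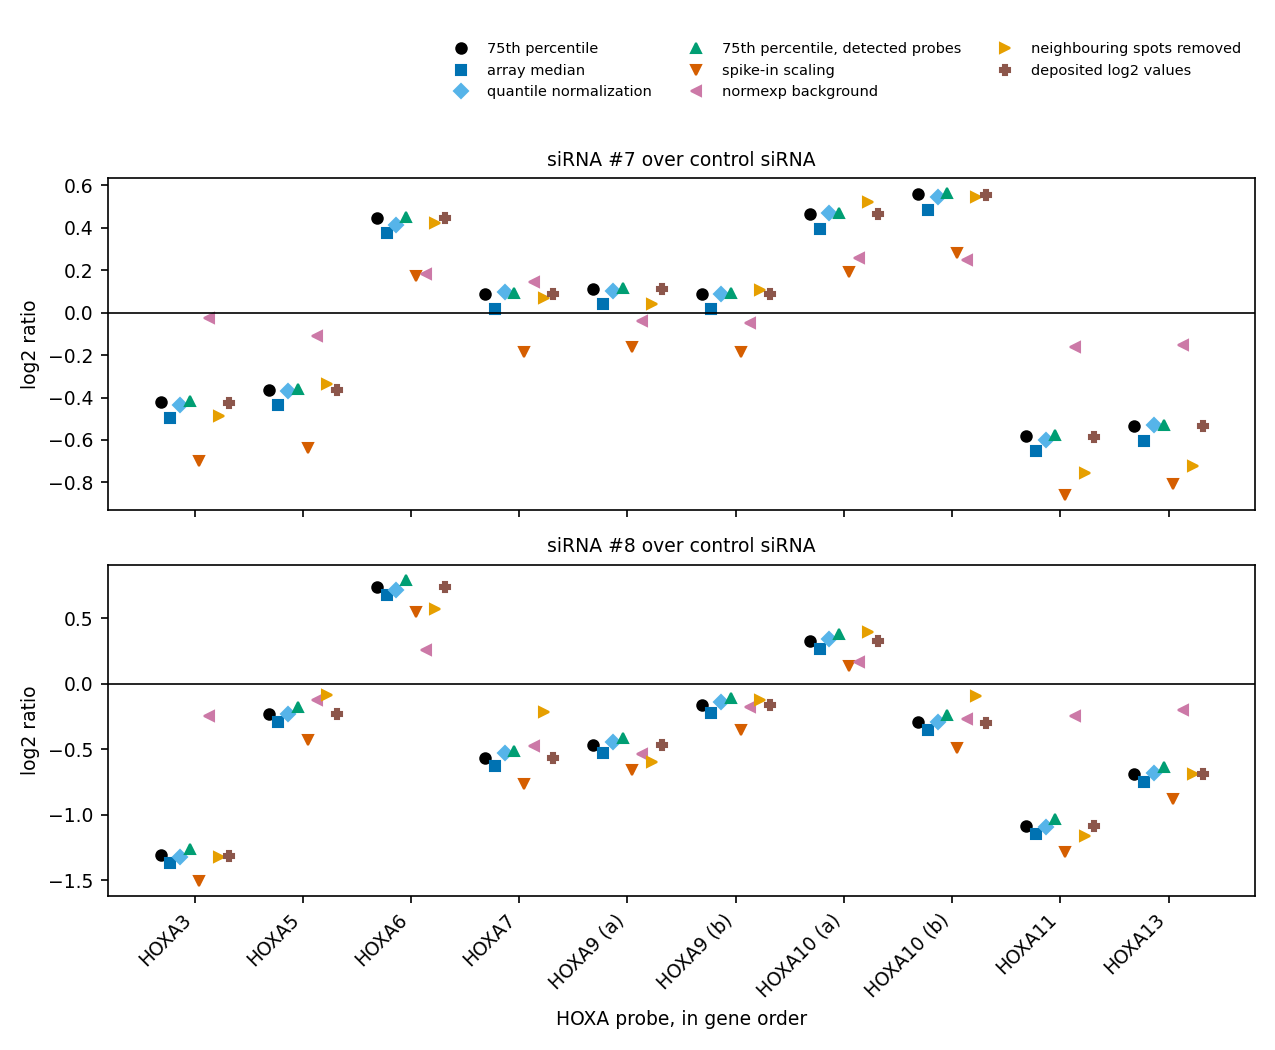
log2 ratio to control siRNA of each *HOXA* probe under 8 ways of scaling or correcting the arrays (symbols), for siRNA #7 (top) and siRNA #8 (bottom). Normexp draws the dim probes toward 0 (*HOXA3* with siRNA #8 from -1.31 to -0.25), spike-in scaling lowers every probe, and only *HOXA7* and *HOXA9* cross 0, with siRNA #7.

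The other RNAs and flanking genes of the locus were read from a list of 11, of which 7 had a matched probe and 4 a probe above background on all arrays. *HOTAIRM1*, a non-coding RNA from the head end that is known from myeloid cells, had intensities of 94.2, 91.9 and 134, and ratios of 0.29 ± 0.23 and 0.81 ± 0.24. It was thus higher on the siRNA #8 array, where *HOXA3*, the nearest member above background on all arrays, was lower. *HOXA11-AS*, antisense to *HOXA11*, had intensities of 68.6, 63.0 and 58.5 on its brighter probe and 18.0, 22.5 and 17.4 on the other. Its ratios were 0.20 ± 0.25 and 0.07 ± 0.26 on the brighter probe, both negative with spike-in scaling, and 0.65 ± 0.40 and 0.25 ± 0.41 on the other. Unlike those of *HOXA11*, no ratio of *HOXA11-AS* was below 0 before spike-in scaling. *EVX1*, a homeobox gene beyond *HOXA13*, had intensities of 172, 63.4 and 130, and ratios of -1.12 ± 0.19 and -0.10 ± 0.18. *SKAP2*, an adaptor gene beyond the head end, had intensities of 122, 66.0 and 134, and ratios of -0.55 ± 0.19 and 0.44 ± 0.18. When neighbouring spots were removed, the *SKAP2* ratios became -1.11, past 2-fold, and -0.26. These flanking genes were each lowest on the siRNA #7 array, whereas *HOXA3* and *HOXA11* were lowest on the siRNA #8 array.

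**Figure D5:**
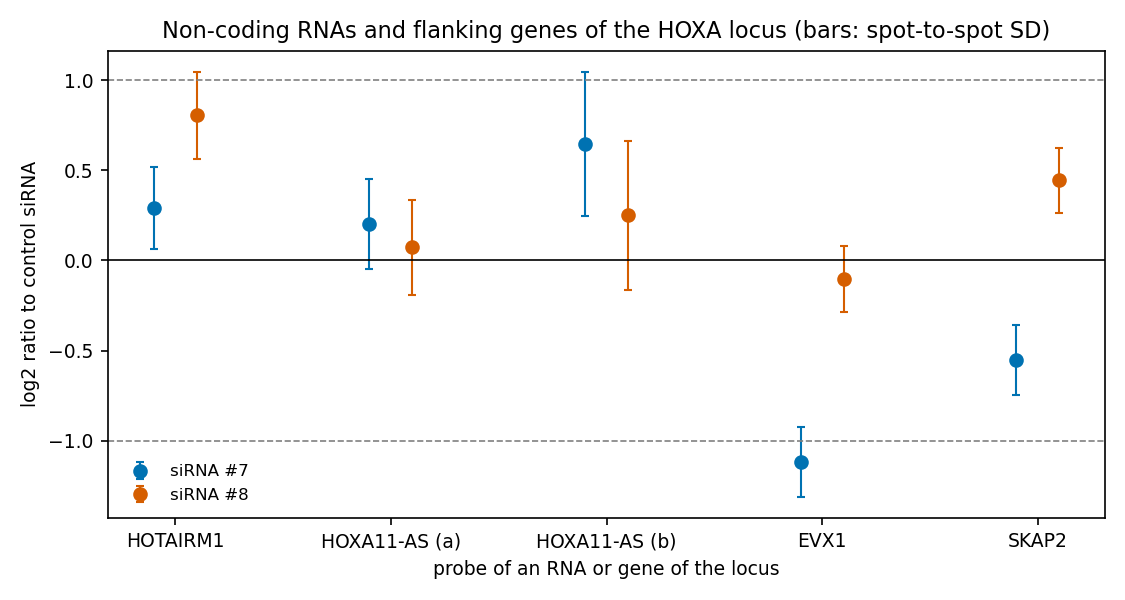
log2 ratio to control siRNA of the other RNAs and flanking genes of the *HOXA* locus above background on all arrays, for siRNA #7 (blue) and siRNA #8 (orange), with bars for the spot-to-spot SD and dashed lines at 2-fold. Before removal of neighbouring spots, as plotted, *EVX1* with siRNA #7 (-1.12) is the one point past 2-fold, and *HOTAIRM1* with siRNA #8 (0.81) is the highest.

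Of the 28 HOX genes of the other clusters, 14 had a passing probe. Their median ratio was 0.13 with siRNA #7 (9 higher, 5 lower) and -0.01 with siRNA #8 (7 higher, 7 lower), beside -0.14 and -0.52 for the *HOXA* genes. *HOXB5* (0.95 and 1.13), *HOXB13* (-0.17 and 1.02) and *HOXC4* (1.05 and 0.48) passed 2-fold with 1 of the siRNAs. Each of these calls was lost under some alternative, with lowest ratios of 0.74 for *HOXB5* and 0.73 for *HOXB13* with siRNA #8 and 0.36 for *HOXC4* with siRNA #7. The normexp offset exceeds the *HOXC4* intensities (20.4, 33.8 and 23.1), so a smaller *HOXC4* ratio with it was fixed in advance. With neighbouring spots removed the *HOXC4* ratio with siRNA #7 was 1.39. The difference between the clusters was not tested. By the distance over both ratios, the HOX genes nearest to *HOXA5* were *HOXD8* (0.15), *HOXB7* (0.20) and *HOXB4* (0.26). These distances are within the spot-to-spot SD of the ratios, so the order of these genes is not resolved.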

How the data were processed

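HCT116 cells were measured with control siRNA, siRNA #7 and siRNA #8, on 1 Agilent 1-colour array each. Spot intensities were deposited by the authors as given by Agilent Feature Extraction 11.5.1.1, with background subtracted and no scaling between arrays, and a log2 table of 21189 probes, each centred on its median over the arrays after a 75th percentile shift. The second was an alternative only.

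Spots flagged as outliers were left out, spots of a probe averaged, and log2 intensities taken minus the 75th percentile of the array over gene probes (Python 3.11.15, numpy 2.4.6, pandas 2.3.3). A passing probe was well above background on all 3 arrays and at or above the 20th percentile on at least 2. A gene was read by its brightest passing probe. Spot-to-spot SDs came from probes printed 10 times, in 6 signal ranges. limma 3.58.1 (R 4.3.3) gave the only p-values, with Benjamini-Hochberg adjustment over all passing probes. For *HOXA4* with siRNA #8 the probe's own level was used. It was not well above background but lay above the lowest level that was. Symbols came from RefSeq accessions without versions.

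Members and lists were chosen with earlier results of these data known. All members, the listed RNAs and genes of the locus, other HOX genes past 2-fold with either siRNA and the 3 nearest to *HOXA5* were named, except 1 listed gene that is not reported here. Alternatives were other scalings (array median, quantile, detected probes, spike-ins), normexp (offset 50, on median spot signals because the files hold no mean signals), removal of neighbouring spots within 3 rows and columns, the deposited table, other filters, the mean of a gene's probes and 1.5-fold. The limma step was tested on simulated data.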

Additional observations from a re-analysis of the deposited data

How the results depend on the processing

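No paired analysis was possible because the labels give no replicate numbers and only 1 array per condition, and for the same reason no replicate could be left out. Counts of *HOXA* genes past the fold threshold moved in 5 cases. With no filter on dim probes, 1 gene (*HOXA2*, not well above background) passed 2-fold with siRNA #7 over control siRNA and 1 with siRNA #8 over siRNA #7, against 0 and 0. With siRNA #8 over control siRNA, 0 genes passed with normexp, against 2, and 4 passed at 1.5-fold. The normexp offset exceeds the intensities of *HOXA3* and *HOXA11*, so their smaller ratios were built in. With siRNA #8 over siRNA #7, 2 passed at 1.5-fold. The other counts were within 1.5 times, the limma counts of members among them. Over member probes in place of genes, the median with siRNA #7 over control siRNA was positive (0.09). The medians of the genes kept their sign but not their size. They ranged from -0.41 to -0.03 with siRNA #7 over control siRNA, from -0.71 to -0.22 with siRNA #8 over control siRNA and from -0.46 to -0.09 with siRNA #8 over siRNA #7, each within the median spot-to-spot SD of a gene's ratio from its value as reported. Of the values of single genes 218 moved by less than their SD and 22 by more. In limma, 0 member probes passed the adjusted threshold under any alternative, with the lowest adjusted p from 0.313 (no filter) to 0.99997, and 2 member probes had an unadjusted p under 0.05 with spike-in scaling, 1 with neighbours removed and 1 with the deposited values. Over all probes limma called 5, and 0 to 3 under the alternatives, with 0 for normexp (931 at an unadjusted p under 0.05) and with no filter (16445). The limma counts rest on the difference between the siRNA arrays and on a lone control array, so they cannot decide whether a gene differed. Dim probes also limit these results. *HOXA3*, *HOXA6* and *HOXA11* had intensities under 40 on every array, where the SD of a ratio is 0.38 or more, and each member probe is 1 spot per array.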

Other observations

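Several RNAs of the *HOXA* locus could not be followed on these arrays. Both probes of *HOTTIP*, the non-coding RNA beyond *HOXA13*, were well above background on none of the arrays (intensities of 1.52 to 2.16 over both probes and all arrays). The same held for the 3 probes of *HOXA-AS3*, which is transcribed across the *HOXA5* to *HOXA7* region (1.66 to 5.21). *HOXA-AS1*, *HOXA-AS2*, *HOXA10-AS* and *MIR196B* had no matched probe.

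Named after their values were seen, *HOXC6* and *HOXC13* were lower with siRNA #8 than with siRNA #7 by -1.02 ± 0.17 and -1.11 ± 0.32 on the log2 scale, and *HOXB13* was higher by 1.19 ± 0.16. They were the genes past 2-fold here among the 14 HOX genes of the other clusters with a passing probe, where 5.58% of all passing probes were. Each fell below 2-fold under some alternative, to -0.69 for *HOXC6*, -0.45 for *HOXC13* and 0.85 for *HOXB13*. The normexp offset exceeds the *HOXC13* intensities (44.9, 45.9 and 21.6), so a smaller *HOXC13* ratio with it was fixed in advance. With neighbouring spots removed the *HOXC13* ratio was -1.44. These differences had no replicate check and were not tested.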
